A study of Homo sapiens with 2 samples.

Results

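ATF4 is the transcription factor that a stressed cell makes when the translation factor eIF2alpha is phosphorylated, and it restores the amino acid supply by raising genes for amino acid synthesis, amino acid import and glutathione turnover. A prolonged response also raises DDIT3, which encodes the factor CHOP and links the pathway to cell death. The 10 genes described here were listed by name for these roles, with earlier results of these data known. They comprise ATF4, its downstream factor DDIT3, the feedback regulator TRIB3, the glutathione-degrading enzyme CHAC1, the cystine importer subunits SLC7A11 and SLC3A2, the serine synthesis enzymes PHGDH, PSAT1 and PSPH, and the asparagine synthetase ASNS. All 10 were found among the 19775 genes that had at least 1 probe set with a single gene symbol, through 17 of 41091 such probe sets.

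Expression was compared between PC3, a human prostate cancer cell line, and PC3CR, its subline with acquired resistance to cabazitaxel (CBZ), a microtubule-binding taxane. By the sample labels, PC3CR had been passaged with CBZ for 18 months and was examined after 3 months free of it, while PC3 has no such treatment in its labels. Both were kept in RPMI medium with fetal bovine serum. Total RNA of each line was hybridised to 1 array, so 2 arrays were compared. The labels do not say whether PC3CR is a clone or a mixed population, and no difference below has a replicate check or a p-value.

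Values are robust multichip average (RMA) values on the log2 scale, in which a difference of 1 is 2-fold, the threshold of the study's methods. Probe sets bind their targets with unequal strength, so a level is compared only with the level of the same probe set on the other array. Where a gene had several probe sets, the one with the highest mean over both arrays represented it. Among all genes the median value was 5.93 in PC3 and 6.05 in PC3CR, and each of the 10 genes lay above these medians on both arrays. Of 6 epithelial markers, KRT8 and KRT18 were bright in both lines, while EPCAM, KRT19 and CLDN4 differed by -2.49, -3.28 and -4.97. The second probe sets of KRT19 and CLDN4 differed by -0.98 and -0.19, within 2-fold. CDH1 differed by -0.67. Of the 6 measured prostate lineage markers, HOXB13 differed by -1.73 and the other 5 lay within 2-fold. The 4 measured neuroendocrine markers were at most 5.40 on either array, and 8 markers of blood, endothelium and fibroblasts had a median difference of -0.41. Of these 8, COL1A1 was past 2-fold lower, at 8.69 in PC3 and 6.56 in PC3CR, and 7 lay within 2-fold. COL1A1 differed by -2.12, but its 5 probe sets ran from -2.12 to 0.03. Whether these shifts had a part in the results below was not tested.

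The feedback regulator TRIB3 and the importer subunit SLC3A2 were at least 2-fold lower in PC3CR, and the serine synthesis enzyme PSAT1 was at least 2-fold higher. The other 7 genes lay within 2-fold. Of these, the stress factor DDIT3, CHAC1 and SLC7A11 had differences of -0.95, -0.91 and -0.83, and the serine enzymes PHGDH and PSPH had 0.69 and 0.37. ATF4 and ASNS differed by at most 0.20 on the log2 scale. In bulk RNA, fewer cells that make a transcript and less of it per cell cannot be told apart. Past 2-fold, 1 gene of 10 was higher in PC3CR (PSAT1), where 9.84% of all genes were, and 2 of 10 were lower (TRIB3 and SLC3A2), where 6.72% of all genes were. The share higher was thus close to that of all genes, and the share lower was above it by about 1 gene in 10. The 10 genes are among 10663 that reached the median of genes on at least 1 array. Of these brighter genes, 1657 were past 2-fold higher and 1148 lower. Beside them the share higher of the 10 was smaller, and the share lower stood out less. Between 1.5-fold and 2-fold lay DDIT3, CHAC1 and SLC7A11, which were lower, and PHGDH, which was higher. The share of all genes in that range is not given, so these have no background to be read against. The median difference over the 10 genes was -0.41, and that of all genes was -0.04.

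**Figure D1:**
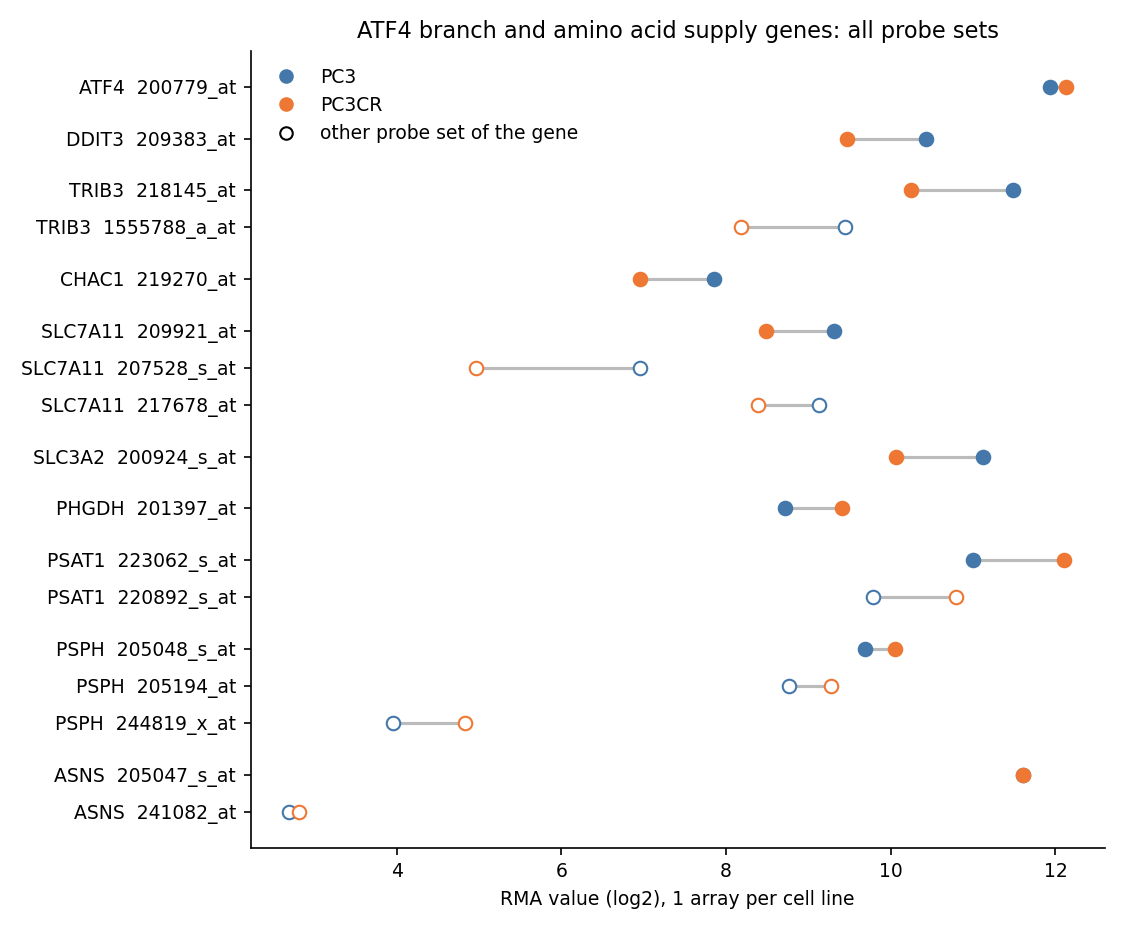
RMA values (log2, horizontal axis) of the 17 probe sets of the 10 genes, with PC3 in blue and PC3CR in orange, 1 array per cell line. Filled points are the probe set that represents a gene and open points its other probe sets, and every probe set of DDIT3, TRIB3, CHAC1, SLC7A11 and SLC3A2 has PC3CR to the left of PC3.

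ATF4 mRNA read 11.93 in PC3 against 12.13 in PC3CR, measured by 1 probe set. The difference was 0.20, or 1.15-fold higher. ATF4 is controlled largely by translation of its mRNA, so that its mRNA level does not report the amount of the protein, which these arrays did not measure. DDIT3 read 10.43 in PC3 against 9.47 in PC3CR, also from 1 probe set. Its difference of -0.95, or 1.94-fold lower, fell just short of the threshold, and 7.22% of all genes had a lower difference.

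TRIB3, a pseudokinase that ATF4 and CHOP induce and that dampens their activity, read 11.49 in PC3 against 10.25 in PC3CR. It was 2.36-fold lower in PC3CR, a difference of -1.24. Its second probe set, at 9.45 and 8.18, differed by -1.27, so both gave nearly the same size. CHAC1, which cleaves glutathione inside the cell, read 7.86 in PC3 against 6.95 in PC3CR, 1.88-fold lower (-0.91). CHAC1 crossed 2-fold after loess centring of the differences (-1.05) and after quantile normalization (-1.01), whereas TRIB3 was past 2-fold under every scaling and probe set choice tried.

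SLC7A11 and SLC3A2 together form system xc-, which imports cystine in exchange for glutamate and so feeds glutathione synthesis. SLC7A11, the transporting light chain, read 9.31 in PC3 against 8.49 in PC3CR, 1.77-fold lower (-0.83). All 3 of its probe sets were lower in PC3CR. The others differed by -0.73 and -1.98, and the mean of the 3 was -1.18, past 2-fold. SLC3A2, the heavy chain that carries the light chains to the cell surface, read 11.12 in PC3 against 10.07 in PC3CR. Its difference of -1.05, or 2.07-fold lower, came from 1 probe set and was -0.98 after quantile normalization.

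SLC3A2 also pairs with other light chains. SLC7A5, the large neutral amino acid transporter LAT1, read 9.31 in PC3 against 9.40 in PC3CR, which differ by 0.08. SLC7A6, SLC7A8 and SLC7A10 differed by -0.10, -0.21 and 0.14. SLC7A7 differed by -0.76, from 4.95 to 4.18, below the median of genes on both arrays. Of the light chains listed here, SLC7A11 thus had the most negative difference, with SLC7A7 next and close to it.

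PHGDH catalyses the entry step of serine synthesis from a glycolytic intermediate. It read 8.71 in PC3 against 9.41 in PC3CR, 1.62-fold higher (0.69). PSAT1, the aminotransferase of the next step, read 11.00 in PC3 against 12.10 in PC3CR. Its difference of 1.10, or 2.15-fold higher, was past the threshold, and its second probe set agreed within 0.1 with a difference of 1.01. PSPH, the phosphatase that releases serine, read 9.68 in PC3 against 10.05 in PC3CR, which differ by 0.37. Its other probe sets differed by 0.51 and 0.87, so that all 3 were higher in PC3CR. The value of 0.87 came from a dim probe set ending in _x_at, at 3.96 in PC3 and 4.83 in PC3CR. All 6 probe sets of the 3 enzymes, this dim one included, were higher in PC3CR. One further probe set that the annotation pairs with PHGDH and other genes was not used.

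ASNS, which makes asparagine and is a classical ATF4 target, was at 11.61 on both arrays, and its difference was -0.003. Its second probe set lay near the floor of the array, at 2.70 and 2.81. The sign of its difference changed with the scaling, so ASNS has no direction in these data. The other 9 genes kept the sign of their difference in all 7 alternatives that give a difference.

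**Figure D2:**
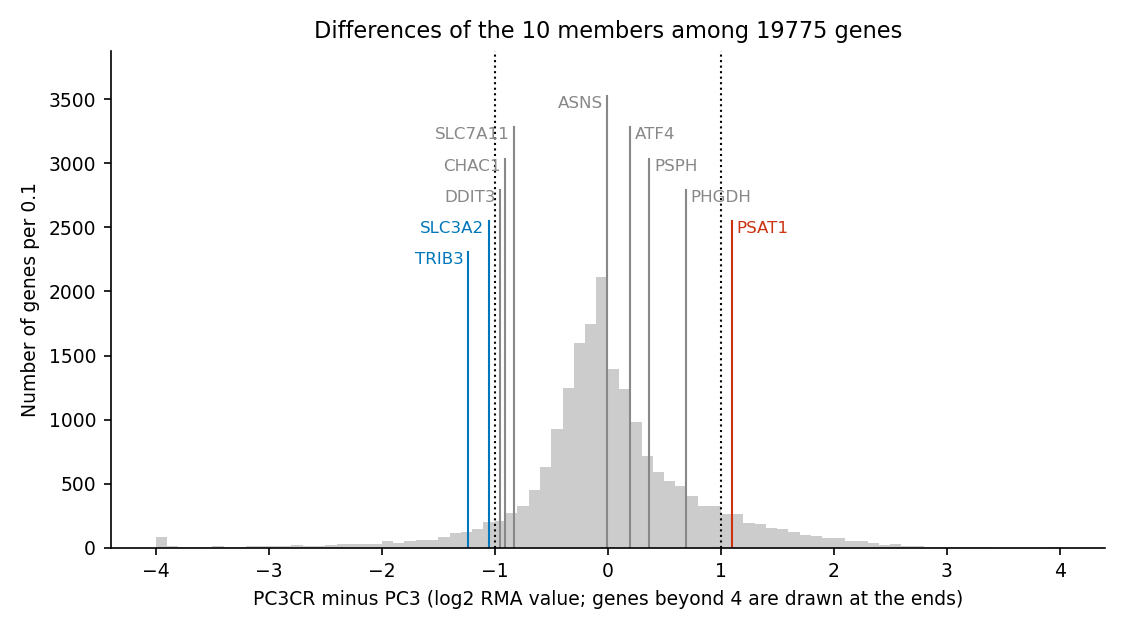
Number of genes (vertical axis) by PC3CR minus PC3 on the log2 RMA scale (horizontal axis, bins of 0.1) for 19775 genes, with the 10 genes marked by lines. Dotted lines mark 2-fold, TRIB3 and SLC3A2 lie past it on the left and PSAT1 on the right, and DDIT3, CHAC1 and SLC7A11 lie just inside it on the left.

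ATF4 acts at the C/EBP-ATF response element, a composite DNA site whose core was searched as TGATGNAA on both strands of the RefSeq promoter windows on GRCh38.p14, which reach from 250 bases before a start to 50 after it. Windows were given for 8 of the 10 genes, and the exceptions were SLC7A11 and PSPH. The core was present for 3 of the 8 (ASNS, CHAC1 and SLC3A2), and for 4.46% of all 27305 genes with a window. The stricter core TGATGCAA, whose matches are all among those of the first search, was present for 1 of the 8 (CHAC1) and for 1.08% of all genes. The ER stress response element, CCAAT and CCACG with 9 bases between them on either strand, was in none of the 8 and in 0.092% of all genes. The following stretches show the core before the start of ASNS, on the minus strand at chr7:97872413-97872532, and of CHAC1, on the plus strand at chr15:40953221-40953325, because the first gene read the same on both arrays and the second was lower in PC3CR. Capitals mark the core, which in CHAC1 reads on the opposite strand.
ASNS: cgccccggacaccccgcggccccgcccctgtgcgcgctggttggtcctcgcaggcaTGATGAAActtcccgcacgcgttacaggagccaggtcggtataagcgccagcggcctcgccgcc
CHAC1: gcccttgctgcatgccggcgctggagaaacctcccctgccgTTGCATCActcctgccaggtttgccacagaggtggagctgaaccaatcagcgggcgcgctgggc

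The match lay 61 bases from the nearest start in ASNS and 202 bases from it in CHAC1. The match of SLC3A2 lay past the start and its sequence is not shown. The genes with the core thus differed by -0.91 (CHAC1), -1.05 (SLC3A2) and -0.003 (ASNS). TRIB3 and DDIT3 had no match in their windows, which says only that these letters are absent from them.

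The aminoacyl-tRNA synthetases, which load amino acids onto tRNA and many of which ATF4 induces, held the core most often among the lists examined. It was present for 6 of the 14 measured synthetases with a window, and the stricter core for 5 of 14. The stretches below, from AARS1 on the minus strand at chr16:70289670-70289709 and from IARS1 on the minus strand at chr9:92293698-92293726, show the same capital letters as CHAC1, here in genes that were not lower. They are the matches of the stricter core among synthetases that lie before every start in the table.
AARS1: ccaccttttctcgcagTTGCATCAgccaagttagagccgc
IARS1: ccgcattttcagcgcgTTGCATCAcctcc

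AARS1 read 11.02 in PC3 against 11.54 in PC3CR, which differ by 0.52, and IARS1 was at 11.41 and 11.51, a difference of 0.11. Over the 6 synthetases with the core the differences ran from -0.15 (CARS1) to 0.98 (NARS1), and the median was 0.31. None of the 6 was past 2-fold.

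The genes listed as acting above ATF4 include both activators and inhibitors of the response, and they showed no common direction. Past 2-fold, 1 of 15 eIF2alpha kinases, phosphatases and partners was higher and 2 were lower, and the median over the list was -0.01. Of all genes, 9.84% were past 2-fold higher and 6.72% lower, so 1 or 2 genes of such a list are near the background. Among the kinases, EIF2AK3, the PERK kinase of the ER stress response, read 8.61 in PC3 against 8.78 in PC3CR, which differ by 0.17. EIF2AK4, the GCN2 kinase that senses uncharged tRNA, differed by 0.67, but its 2 probe sets ran from -1.93 to 0.67. EIF2AK2, the kinase activated by double-stranded RNA, differed by 0.86, with its 3 probe sets between 0.09 and 0.86. EIF2AK1, the heme-regulated kinase, differed by -0.10, and its other probe set by 0.87. PPP1R15A, or GADD34, which brings the phosphatase to eIF2alpha and ends the response, read 9.77 in PC3 against 6.81 in PC3CR. It was 7.80-fold lower, and its 2 probe sets differed by -2.96 and -3.22. IMPACT, an inhibitor of GCN2, differed by 1.72, and EIF2B2, a subunit of the exchange factor for eIF2, by -1.22.

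Among 20 partners and stress targets of ATF4, 5 were past 2-fold lower in PC3CR, 1 was past 2-fold higher and 14 lay between. This is 25% lower and 5% higher, beside 6.72% and 9.84% of all genes. Like the other lists, this one was chosen with earlier results of these data known, so the shares are a description and no test. The median was -0.53, and 16 of the 20 differences were below 0, beside 10366 of 19775 over all genes. GDF15, a secreted stress cytokine, read 13.08 in PC3 against 7.42 in PC3CR, which differ by -5.66. Its 3 probe sets differed by -5.66 to -1.70, all past 2-fold downwards but of unequal size. NUPR1, a stress-induced chromatin protein, differed by -1.74, and STC2, a secreted glycoprotein, by -1.57. The exception was VLDLR, a lipoprotein receptor, which read 5.80 in PC3 against 8.62 in PC3CR (2.82). The bZIP partners CEBPB and ATF3, named here after their values were seen, differed by -0.96 and -0.96 and so lay close to DDIT3. Other bZIP partners in the list had no common direction, with ATF5 at -0.84, CEBPG at -0.14 and JDP2 at 0.54.

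Among 9 measured genes downstream of CHOP, TRIB3 and CHAC1 included, 3 passed 2-fold downwards, none upwards and 6 lay between, around a median of -0.91. The share lower was 33.3%, beside 6.72% of all genes and 1148 of the 10663 genes that reached the median on at least 1 array, as these 9 did. Apart from TRIB3 these were PPP1R15A, given above, and DNAJB9, an ER co-chaperone, at 11.51 in PC3 and 9.34 in PC3CR. DNAJB9 differed by -2.18, and each of its 3 probe sets was at least 2-fold lower. All 3 called genes are also counted elsewhere: TRIB3 among the 10 genes, PPP1R15A in the eIF2alpha list and DNAJB9 in the next list. CHAC1 and ATF3 are shared too. The genes found only here lay within 2-fold, with TNFRSF10B at -0.58, BCL2L11 at -0.46, CAV1 at -0.12 and ERO1A at 0.17. The 3 probe sets of ERO1A ran from -1.13 to 0.17.

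The other branches of the unfolded protein response, which run through ATF6 and IRE1 and which raise ER chaperones, had a median of the same sign. Among 18 genes, 5 passed 2-fold downwards and none upwards, around a median of -0.61. Of the 18 differences, 17 were below 0, beside 10366 of 19775 over all genes. The share lower was 27.8%, beside 6.72% of all genes, and the count was 3 when the probe sets of each gene were averaged. All 18 genes lay above the median on both arrays, and 1148 of the 10663 genes that reached it on at least 1 array were past 2-fold lower. Besides DNAJB9, these included ERN1, which encodes IRE1, at -1.32, with its 3 probe sets between -2.55 and -0.22. HERPUD1, of ER-associated degradation, differed by -1.30, and by -0.82 as an average of its 2 probe sets. SEL1L, of the same pathway, differed by -1.18, and its 4 probe sets averaged just under 2-fold, between -1.42 and -0.46. The ER stress response element was present for 6 of these 18 genes, and the differences of the 6 had a median of -0.45 with none past 2-fold.

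**Figure D3:**
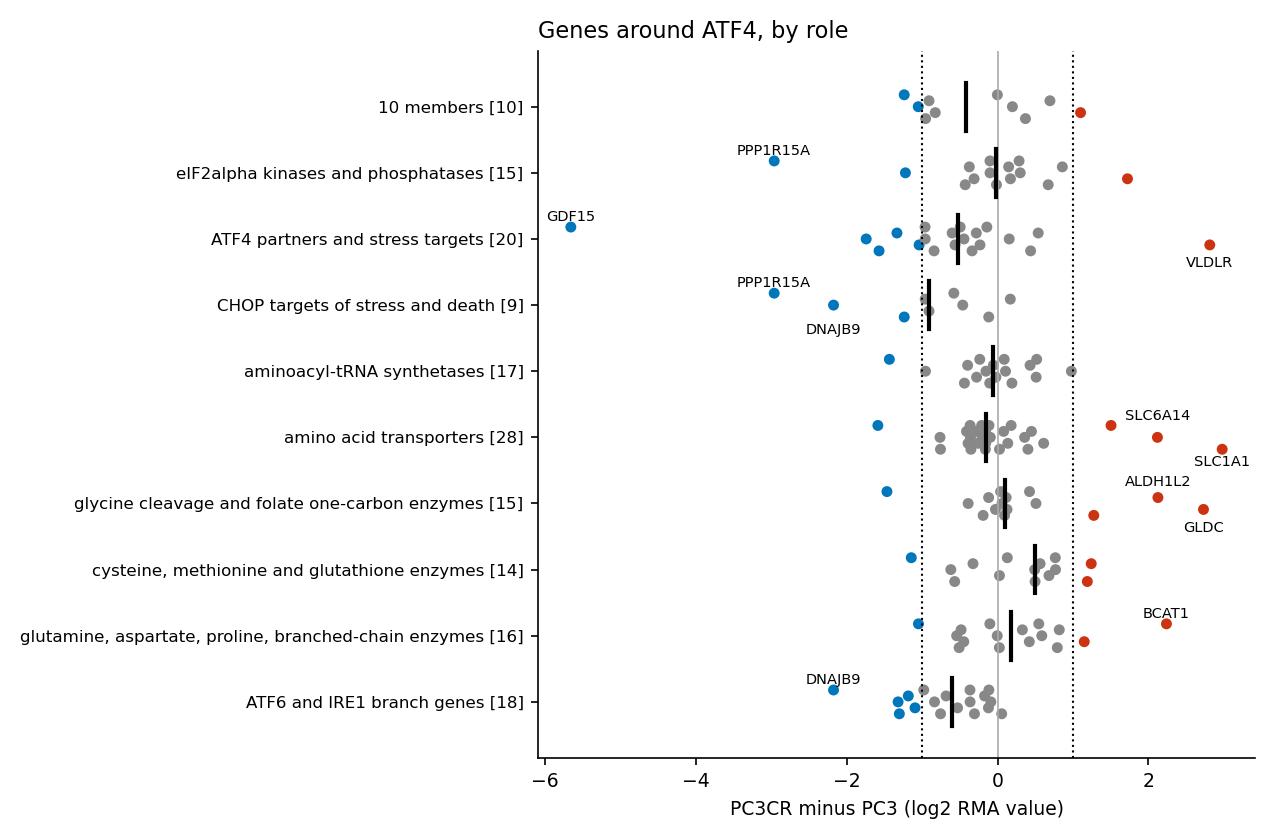
PC3CR minus PC3 on the log2 RMA scale (horizontal axis) for the 10 genes and 9 lists of related genes, 1 point per gene, with the number measured in brackets. Colour gives the call (red past 2-fold upwards, blue past 2-fold downwards, grey between), black bars are medians, and names are given beyond a difference of 2. The ATF4 partner, CHOP target and ATF6 and IRE1 lists have medians of -0.53, -0.91 and -0.61, while the synthetase list has -0.06.

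Lists of amino acid supply had medians closer to 0 or above it. Of 17 synthetases, 16 lay within 2-fold, none was past it upwards and the median was -0.06. FARSA, a subunit of the phenylalanine enzyme, was the exception at -1.44. Among 28 amino acid transporters, 3 passed 2-fold upwards and 1 downwards, around a median of -0.16. These shares, 10.7% and 3.57%, lay near or below those of all genes, 9.84% and 6.72%. SLC1A1, the neuronal-type glutamate, aspartate and cysteine transporter, read 5.68 in PC3 against 8.66 in PC3CR, which differ by 2.98. It carries cysteine itself, where SLC7A11 carries cystine, and its 2 probe sets differed by 1.02 and 2.98. SLC1A4, an alanine, serine and cysteine transporter, differed by 1.51, but its 5 probe sets ran from -0.13 to 1.73 and averaged 0.94. SLC6A14 differed by 2.12, from 2.34 to 4.46, near the floor of the array in PC3. SLC1A3, a glutamate transporter, differed by -1.59, and by -0.94 when its 2 probe sets were averaged.

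Around serine, the enzymes that use it were compared next. SHMT2, the mitochondrial enzyme that turns serine into glycine, read 10.40 in PC3 against 10.51 in PC3CR, which differ by 0.11. SHMT1, its cytosolic counterpart, was dim at 3.79 and 4.30. Among 15 enzymes of glycine cleavage and folate metabolism, 3 passed 2-fold upwards and 1 downwards, around a median of 0.09. The shares were 20% higher and 6.67% lower, beside 9.84% and 6.72% of all genes. GLDC, the glycine decarboxylase, read 5.49 in PC3 against 8.22 in PC3CR, which differ by 2.73, and AMT, of the same cleavage system, differed by 1.28. ALDH1L2, which oxidises a mitochondrial folate, differed by 2.13, and by 0.94 as an average of its 3 probe sets. SFXN3, a mitochondrial carrier, differed by -1.47, but its 3 probe sets ran from -1.47 to 0.99 and averaged 0.16, so that its direction turned.

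Glutathione enzymes had a median of the opposite sign to the cystine importer. Among 14 enzymes of cysteine, methionine and glutathione, 2 passed 2-fold upwards and 1 downwards, and their median was 0.49. The shares, 14.3% and 7.14%, stood beside 9.84% and 6.72% of all genes. GCLM, a subunit of the rate-limiting enzyme of glutathione synthesis, read 9.37 in PC3 against 10.61 in PC3CR, which differ by 1.24, and all 3 of its probe sets were past 2-fold. GSR, which regenerates reduced glutathione, differed by 1.19. CTH, which makes cysteine from cystathionine and is an ATF4 target, read 9.25 in PC3 against 8.10 in PC3CR. Its difference of -1.14 had the sign of SLC7A11, CHAC1 and TRIB3, and its second probe set differed by -0.998. PSAT1 and PHGDH had the opposite sign, and ASNS had no direction.

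Among 16 enzymes of glutamine, aspartate, proline and branched-chain amino acids, 2 passed 2-fold upwards and 1 downwards, and their median was 0.18. The shares, 12.5% and 6.25%, lay near those of all genes. BCAT1, the cytosolic branched-chain aminotransferase, read 9.07 in PC3 against 11.31 in PC3CR, and all 4 of its probe sets were higher, by between 1.94 and 3.18. ASRGL1, which hydrolyses asparagine, differed by 1.15, whereas ASS1, which makes argininosuccinate, differed by -1.05 and was within 2-fold after quantile normalization.

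The genes beside each member on the chromosome were read alongside it. For each, the 10 nearest genes, 5 on either side, were taken if they reached the median of genes on at least 1 array. Gene order alone decided, with no limit on distance, so a neighbour need not lie close by. Of the 10663 genes on the arrays that passed this floor, 1657 were past 2-fold higher and 1148 lower. Beside PSAT1, on chromosome 9, the neighbours were also higher, with a median of 1.03, while the medians beside the other 9 genes lay between -0.52 and 0.22. Of its 10 neighbours, 9 had a difference above 0 and 5 were past 2-fold upwards, among them GNAQ at 2.10, CEP78 at 1.64 and VPS13A at 1.60. The difference of PSAT1 itself, 1.10, lay close to that median. The part of the chromosome in the value of PSAT1 was not tested. With no floor on signal the median beside PSAT1 was 0.33, and over 20 neighbours it was 1.07.

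PHGDH and PSPH had neighbours of the opposite sign, with medians of -0.26 and -0.22, although over 20 neighbours the median beside PHGDH was 0.56. Beside PSPH, 2 of 10 neighbours were past 2-fold downwards and 0 upwards, the 2 being ZNF138 at -1.70 and ZNF92 at -1.98. With 1148 of 10663 genes over the floor past 2-fold lower, 1 or 2 such neighbours of 10 are near the background. DDIT3 and SLC7A11, both lower in PC3CR, lay among genes with medians of 0.22 and 0.19, the latter turning to -0.11 with no floor on signal. CHAC1, also lower, lay among genes with a median of -0.31, which was -0.03 over 20 neighbours. Among the 10 neighbours of CHAC1, 2 were past 2-fold upwards and 2 downwards. The most negative surroundings were those of SLC3A2 at -0.52, where 1 of 10 neighbours was past 2-fold downwards. TRIB3 lies near the end of chromosome 20 and had 6 neighbours by this rule, 2 of them past 2-fold downwards, around a median of -0.36, which turned to 0.16 over 20 neighbours. The medians beside ATF4 and ASNS also turned with no floor, to -0.22 and to above 0.

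**Figure D4:**
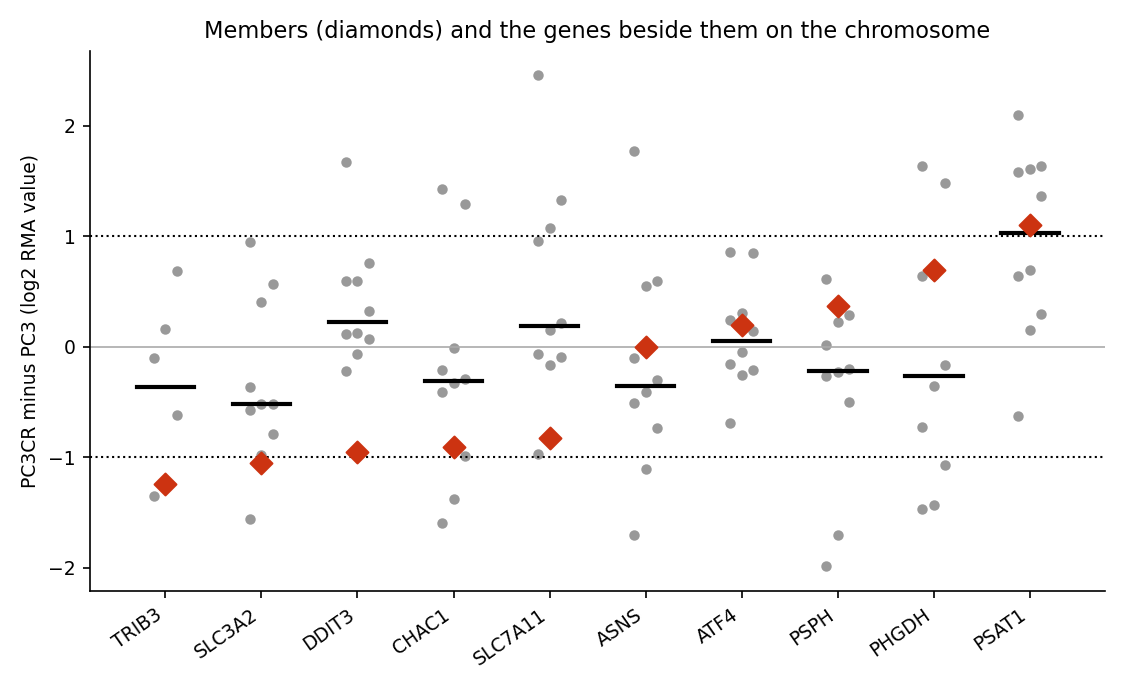
PC3CR minus PC3 on the log2 RMA scale (vertical axis) of the 10 genes (red diamonds) and of their nearest genes on the chromosome (grey points), with the median of the neighbours as a black bar and dotted lines at 2-fold. The bar beside PSAT1 lies at 1.03, close to its diamond, and every other bar lies between -0.52 and 0.22.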

How the data were processed

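Total RNA of PC3 and PC3CR was profiled on 1 array each. The authors deposited 1 log2 value per probe set, made with RMA, and their processing notes name Affymetrix Expression Console 1.4 and Transcriptome Analysis Console 3.1. RMA equalises the arrays, so a change in total RNA per cell cannot be seen. The probe sets belong to the Human Genome U133 Plus 2.0 design, although another Affymetrix design is named in the methods. Precision is limited by having 1 array per line.

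Of 54613 probe sets, 41091 had 1 gene symbol in the platform annotation and were used, 1801 had several and 11721 were unnamed here. Symbols were updated through Entrez IDs to RefSeq on GRCh38.p14 for 41037 of them. The probe set with the highest mean represented a gene. Some listed genes were not analysed here. Gene order came from the RefSeq table, whose coordinates apply only to the printed sequences.

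No test was run. The members, lists and named genes were chosen with earlier results of these data known. Named were the members, the eIF2alpha kinases, the light chains of SLC3A2, SHMT1, SHMT2 and, per list, up to 4 genes furthest from 0 past 2-fold. Not all of these are printed. The steps were tested on simulated data. Alternatives were other thresholds (1.5-fold, 3-fold), probe set choices, scalings (median, loess with a span of 0.4, quantile) and a floor at the median. A value was taken as moved beyond 0.1 and a count beyond 1.5 times. Calculations ran in Python 3.11.15 with pandas 2.3.3, numpy 2.4.6 and, for loess, statsmodels 0.14.6, and plots were drawn in matplotlib 3.10.9.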

Additional observations from a re-analysis of the deposited data

How the results depend on the processing

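No paired analysis was possible because each cell line has 1 array. The median of all genes moved by at most 0.03 under the other scalings, and by 0.13 with the floor on signal, which removes dim genes. Among the 10 genes, 2 were higher and 5 lower at 1.5-fold, and 0 and 0 at 3-fold. The shares of all genes at 1.5-fold and 3-fold are not given, so counts at these thresholds have no background to be read against. At 1.5-fold the upstream list had 3 higher, ATF4 partners 9 lower, CHOP targets 5 lower, synthetases 1 higher and 2 lower, transporters 3 lower, glutathione enzymes 5 higher and 2 lower, glutamine enzymes 5 higher and the ATF6 and IRE1 list 9 lower. At 3-fold the upstream list had 1 lower, ATF4 partners 2 lower, synthetases 0 lower, folate enzymes 0 lower, glutathione enzymes 0 higher and 0 lower, glutamine enzymes 1 higher and 0 lower, and the ATF6 and IRE1 list 1 lower. With the mean of the probe sets, transporters had 0 lower and a median of -0.032, folate enzymes 0 lower and a median of 0.26, and the ATF6 and IRE1 list 3 lower. Of all 19775 genes, 1369 were past 2-fold higher and 1074 lower in that setting, beside 1946 and 1329 in the main one. Without probe sets ending in _x_at or _s_at, medians were -0.79 for CHOP targets, 0.39 for glutathione enzymes and -0.51 for the ATF6 and IRE1 list. One synthetase was past 2-fold higher after loess centring (1) and after quantile normalization (1), where glutamine enzymes had 0 lower. Of all genes, 1796 were higher and 1439 lower after loess centring, and 1819 and 1382 after quantile normalization. With the floor the median of glutamine enzymes was 0.024. The cause of these shifts was not tested. No called value among the 10 genes changed sign, while SFXN3, called lower, averaged 0.16 over its probe sets. Other single genes were not recomputed under every alternative.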

Other observations

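Across all 15384 measured genes with a promoter window, 556 held the response element core TGATGNAA. Past 2-fold, 8.45% of these were higher in PC3CR and 7.19% lower, around a median difference of -0.08. Among the 14828 genes without the core the shares were 10.2% and 6.81%, with a median of -0.03. The 144 genes with the stricter core TGATGCAA had 16 genes past 2-fold in each direction, or 11.1% higher and 11.1% lower. Among the 15240 genes without the stricter core the shares were 10.1% and 6.78%.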
